A study of Mus musculus with 12 samples.

Results

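The genes described here encode the protein subunits of the cytosolic ribosome. They were chosen by symbol, as the mouse genes named Rpl or Rps with a number, and an optional letter a, x or l, together with the stalk genes Rplp0, Rplp1 and Rplp2 and the small subunit gene Rpsa. Of the 23420 genes counted, 80 matched these symbols and 76 had 10 or more counts in at least 3 libraries, 31 of the small subunit and 45 of the large subunit. The rule itself used no difference between groups, although the members were chosen with earlier results of these data known. The 4 genes that matched and were not kept were Rpl10l and Rpl26, listed at 0 in all 12 libraries, and Rpl39l and Rpl3l, with at most 3 and 8 counts in a library.

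The libraries hold RNA of whole pylorus, where the stomach opens into the gut. Wild-type C57BL/6 mice (WT) were set against mice carrying CEA424-SV40 T Ag (TG), whose transgene places the simian virus 40 large T antigen under the promoter of a human carcinoembryonic antigen gene. Mice of both genotypes were 60 (D60) or 80 (D80) days old, which gives 4 groups, each of 3 libraries, and the labels name no treatment. Whether each library stands for its own animal is not stated in the labels, so p-values measure the spread between libraries, which may be technical. In bulk tissue, fewer cells of a type and less RNA per cell cannot be told apart.

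A ribosome is built from ribosomal RNA and, for most ribosomal proteins, a single copy of each, so cells make these proteins in nearly equal amounts. Their mRNAs are short and abundant, and most begin with a run of pyrimidines, the 5-prime TOP motif, through which the growth-sensing kinase mTOR and the protein Larp1 control their translation. The genes are transcribed by RNA polymerase II, are broadly active in dividing and secreting cells, and are known targets of Myc. A measured level of such a large block of abundant mRNAs is relative to the rest of the library, so the scaling of libraries bears on it.

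Promoter starts are shown for members at both ends of the range of change between ages in TG mice, a choice made after the values were seen. After Rps14, the genes Rpl11, Rpl9 and Rpl41 fell most in that comparison, and Rpl4, Rpl14 and Rpl6 changed least among the well-counted members. Each sequence runs from 30 bases before the RefSeq start to 30 bases after it on GRCm38.p6, 5′ to 3′ on the strand of the gene, and capitals mark the longest run of C and T.
Rpl11, chr4:136053364-136053423, minus strand: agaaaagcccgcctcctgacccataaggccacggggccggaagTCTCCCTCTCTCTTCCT
Rpl9, chr5:65391402-65391461, minus strand: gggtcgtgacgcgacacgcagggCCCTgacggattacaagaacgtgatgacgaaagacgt
Rpl41, chr10:128549139-128549198, minus strand: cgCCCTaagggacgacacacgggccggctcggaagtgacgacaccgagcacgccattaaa
Rpl4, chr9:64173357-64173416, plus strand: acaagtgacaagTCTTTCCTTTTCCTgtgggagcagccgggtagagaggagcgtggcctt
Rpl14, chr9:120571487-120571546, plus strand: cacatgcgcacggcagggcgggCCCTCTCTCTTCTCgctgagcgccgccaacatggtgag
Rpl6, chr5:121204471-121204530, plus strand: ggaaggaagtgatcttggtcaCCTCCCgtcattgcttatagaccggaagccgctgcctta
The longest run was 17 bases in Rpl11 and 14 in both Rpl4 and Rpl14. It was 4 bases in Rpl9 and Rpl41 and 6 in Rpl6, so long and short runs occurred at both ends of the range. The run of Rpl11 reaches the end of the window and may go on beyond it. That of Rpl4 lies before the RefSeq start, but the GENCODE start of the gene, chr9:64173375, falls inside it. The start depends on the annotation, so a run in this window need not be a 5-prime TOP motif, and this was not tested. A run of 8 or more within these 60 bases was found in 32 of the 56 members with a RefSeq promoter, or 57.1%, and in 26.3% of 11379 genes kept by the same count rule. In the 300 bases from 250 before to 50 after the start, searched on both strands, CCGGAAG, the core letters bound by Ets factors such as Gabpa, occurred in 41.1% of members and 17.2% of all genes. AAGATGGC, the core letters of the Yy1 motif, occurred in 8.93% and 4.59%, TATAAA in 10.7% and 9.84%, and CTTTCC, searched as a short pyrimidine word, in 51.8% and 30.7%. CTTTCC can lie inside a run of C and T.

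The members lay on 19 chromosomes. Their representative transcripts in GENCODE M21 were 345 to 5130 bases long with a median of 767.5, against a median of 2781 for the tested genes. Ribosomal protein genes have many processed pseudogenes: a median of 52.2% of a member's 50-base words also occurred in a transcript of another gene, and 75 of the 76 members shared such words. How the counting treated reads with more than one match is not given in the sources used here, so single members are uncertain where such copies could take their reads.

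Library totals ran from 20121600 to 27633715 counts. Of the 76 members, 73 had 1673 to 43438 counts in every library. The other 3 had 2 to 46 counts: Rps27 (98.65% of words shared), Rpl30 (47.8%) and Rpl34 (50.6%). Rpl26, at 0 counts, shared 71.3% of its words, and Rpl9, at a mean of 17964 counts, shared 93.3%. The part of shared sequence in the low counts of Rps27, Rpl30, Rpl34 and Rpl26 was not tested.

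The ribosomal protein genes took up overlapping shares of the counts in WT and TG libraries at D80, while other abundant genes did not. At D60 the 76 genes held 3.56%, 3.56% and 4.48% of all counts in WT libraries and 3.24%, 3.32% and 3.49% in TG libraries. At D80 they held 3.84%, 2.74% and 2.69% in WT libraries and 2.68%, 3.01% and 3.17% in TG libraries. Every TG library lay below every WT library at D60, and the groups overlapped at D80, where the WT share was spread over a wider range than the TG share.

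As group means the shares were 3.87% ± 0.527 in WT D60, 3.35% ± 0.131 in TG D60, 3.09% ± 0.649 in WT D80 and 2.95% ± 0.246 in TG D80 (SD, n = 3). The difference between TG and WT was -0.516 percentage points at D60 and -0.137 at D80, and it turned to 0.238 at D80 without WT D80 replicate 1. An exact two-sided permutation test gave p = 0.1 at D60 and p = 0.8 at D80. With 3 libraries against 3, 0.1 is the smallest p this test can give. The 95% Wilson interval of a library's share was at most 0.0084 percentage points to either side, which covers counting error only and is far smaller than the spread between libraries. The small subunit held 1.29% ± 0.268 in WT D80 and 1.21% ± 0.102 in TG D80, and the large subunit 1.80% ± 0.381 and 1.74% ± 0.144.

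Other abundant transcripts took up less of the TG D80 libraries. The 100 most abundant other genes held 30.1% ± 1.39 of the counts in WT D80 and 21.5% ± 1.11 in TG D80, with no overlap. The 12 pyloric epithelium markers alone, such as the gastric mucin Muc5ac and the hormone gene Gast, held 15.3% ± 0.768 and 6.82% ± 1.06. With the 100 genes taken out of the denominator, the ribosomal protein share was 4.41% ± 0.833 in WT D80 and 3.76% ± 0.261 in TG D80. These groups overlapped, with 5.37%, 3.98% and 3.88% in the WT libraries and 3.47%, 3.83% and 3.98% in the TG libraries. The trimmed mean of M-values (TMM), a scaling that takes most genes as unchanged, gave the TG D80 libraries factors of 1.21, 1.23 and 1.30 and the WT D80 libraries 1.02, 0.927 and 0.854.

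On the TMM scale the same genes stood apart between genotypes at D80. The summed level of the 76 genes, in CPM (counts per 1e+06 of the scaled library size), was 37700, 29580 and 31530 in WT D80 and 22280, 24490 and 24360 in TG D80. It was 44270, 36660 and 49040 in WT D60 and 34930, 32340 and 37000 in TG D60. TG D80 lay below all other libraries, and at D60 the groups overlapped.

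**Figure D1:**
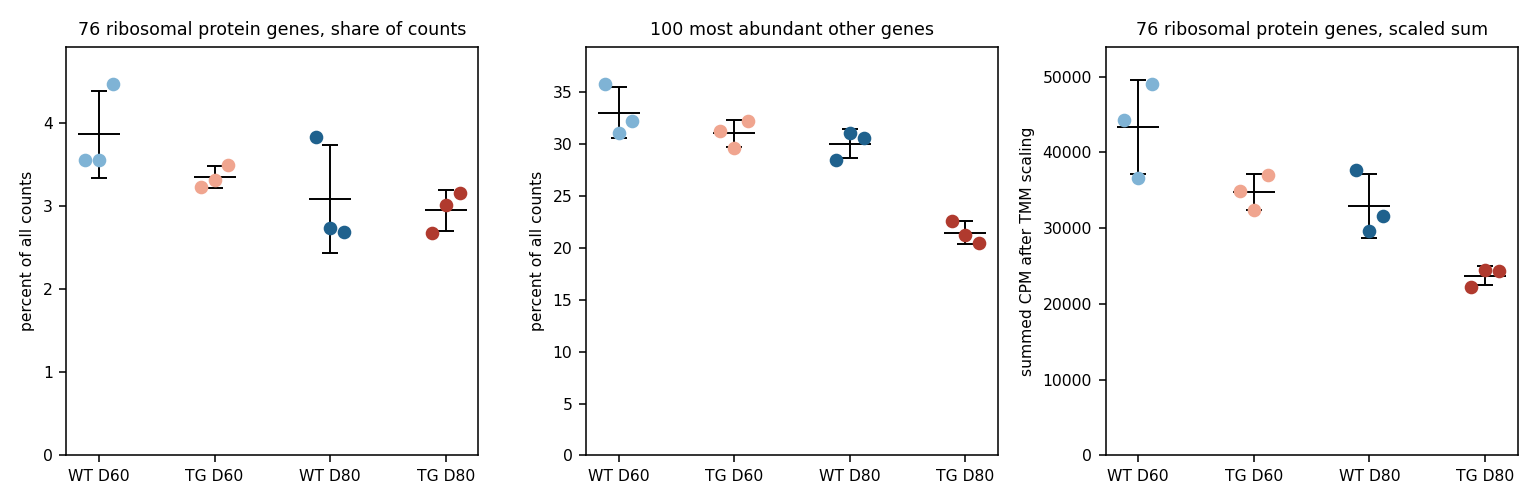
Each point is a library and the bars are the mean ± SD of 3 libraries. The left panel plots the percent of all counts in the 76 ribosomal protein genes, where WT D80 and TG D80 overlap, the middle panel the percent in the 100 most abundant other genes (30.1% and 21.5% in WT and TG at D80), and the right panel the summed CPM of the 76 genes after TMM scaling, where TG D80 lies at 22280 to 24490.

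At D80, ribosomal protein genes fell in TG against WT mice on the TMM scale, across both subunits, and not with library totals alone, where 0 members were called. Of the 76 members, 53 passed an adjusted p of 0.05 as lower and 0 as higher, by edgeR's quasi-likelihood test over 15369 genes, of which 22% were called lower and 19.4% higher. The median log2 fold change was -0.45, against -0.07 over all tested genes. The members called lower were 23 of 31 in the small subunit and 30 of 45 in the large subunit, with medians of -0.47 and -0.43. In 71 members every TG library lay below every WT library, against 26.1% of all tested genes. The number called lower was 28 without WT D60 replicate 1, 25 without WT D80 replicate 1 and 26 without TG D60 replicate 2. It was 18, 26 and 18 without TG D80 replicates 1, 2 and 3. The share of all genes called in these fits is not given, so a general loss of calls cannot be told from one particular to the members.

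The largest fall among called members was that of Rps14, a small subunit protein whose loss in human 5q- syndrome impairs red cell formation. Rps14 stood at 684, 523 and 1147 CPM in WT D80 and at 388, 475 and 404 CPM in TG D80. WT replicate 3 was high, and the groups did not overlap. The log2 fold change was -0.89 ± 0.27 (SE) with an adjusted p of 0.019, and the call was lost without WT D80 replicate 3 (-0.51, adjusted p = 0.078), without TG D80 replicate 1 (-0.84, 0.060) or without TG D80 replicate 3 (-0.82, 0.080).

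Rpl11 (chr4:136028265-136053428, minus strand), which with Rpl5 and 5S ribosomal RNA can bind and block the p53 regulator Mdm2, stood at 565, 454 and 696 CPM in WT D80 and at 317, 365 and 349 CPM in TG D80. It fell by 0.73 ± 0.19 on the log2 scale (adjusted p = 0.01). Its partner Rpl5 was at 462, 417 and 416 CPM and at 275, 297 and 310 CPM, and changed by -0.56 ± 0.14 (adjusted p = 0.0083). In neither gene did the groups overlap.

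Rpl22 (chr4:152325742-152334071, plus strand), a large subunit protein that T cells need for their development, was at 240, 198 and 218 CPM in WT D80 and at 126, 131 and 150 CPM in TG D80. It changed by -0.69 ± 0.14 (adjusted p = 0.0028). Rpl31 (chr1:39367842-39371911, plus strand), which lies at the exit of the peptide tunnel, was at 305, 238 and 266 CPM and at 162, 175 and 177 CPM, and changed by -0.66 ± 0.14 (adjusted p = 0.0042). The TG libraries of both genes lay close together and below all 3 WT libraries.

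At the other end, Rpl6 was at 506, 401 and 347 CPM in WT D80 and at 322, 342 and 346 CPM in TG D80, a change of -0.31 ± 0.15 that was not called (adjusted p = 0.11). WT replicate 3 stood beside the TG libraries. Rpl14 (-0.27 ± 0.15, adjusted p = 0.18) and Rps13 (-0.27 ± 0.15, 0.16) were also not called. With 1 library left out, Rpl6 ranged from -0.43 (called without WT D80 replicate 3, adjusted p = 0.035) to -0.15, Rpl14 from -0.40 to -0.10 and Rps13 from -0.37 to -0.13. Of the well-counted members, all 73 had fold changes below 0 on the TMM scale. Rpl35, with 123, 94.6 and 105 CPM in WT D80 and 74.4, 82.5 and 79.4 CPM in TG D80, lay nearest the members' median (-0.45 ± 0.13, adjusted p = 0.016). Its call was lost without TG D80 replicate 1 (0.054) or 3 (0.069).

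The stalk, a flexible arm of the large subunit that recruits translation factors, is made of Rplp0, Rplp1 and Rplp2. At D80 Rplp1 fell (-0.63 ± 0.18, adjusted p = 0.014), and Rplp0 (-0.43 ± 0.18, 0.066) and Rplp2 (-0.39 ± 0.15, 0.058) did not pass, although Rplp2 did without WT D60 replicate 2 (0.039). Rplp0 had the highest mean level of all members, with 1471, 1219 and 1334 CPM in WT D80 and 926, 1044 and 1011 CPM in TG D80. Rpsa, a small subunit protein also known as a laminin receptor, fell by 0.51 ± 0.18 (adjusted p = 0.038). The call of Rplp1 was lost without TG D80 replicate 3 (adjusted p = 0.056), and that of Rpsa when any of 7 of the 12 libraries was left out (up to 0.12).

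Rps6, the subunit phosphorylated by S6 kinase when mTOR is active, changed by -0.43 ± 0.15 (adjusted p = 0.035), a call lost when any of 8 of the 12 libraries was left out (-0.28 without WT D80 replicate 1, adjusted p = 0.11). Rps27a, made as a fusion with ubiquitin, changed by -0.55 ± 0.15 (adjusted p = 0.013). Rps19, which is mutated in Diamond-Blackfan anaemia in humans, changed by -0.38 ± 0.16 and did not pass (adjusted p = 0.071), although it did without WT D80 replicate 2 (-0.49, adjusted p = 0.043). Rps27l (chr9:66946086-66949516, plus strand), a p53-responsive relative of Rps27, was at 95.3, 98.9 and 91.7 CPM in WT D80 and at 61.6, 61.7 and 66.9 CPM in TG D80, a fall of 0.59 ± 0.12 on the log2 scale (adjusted p = 0.0029).

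Between D60 and D80 in TG mice, ribosomal protein genes fell on the TMM scale as well. With library totals alone 5 of 76 were called lower, a share of 6.58% that lies near the 7.14% of all tested genes. Of the 76 members, 59 were called lower and 0 higher, against 18% of all tested genes called lower and 17.7% higher. The median log2 fold change was -0.51, against 0.02 over all tested genes. In 73 members every TG D80 library lay below every TG D60 library, against 28% of all tested genes. The number called lower was 37 and 22 without TG D60 replicates 1 and 3, and 26, 37 and 31 without TG D80 replicates 1, 2 and 3. For these fits, too, the share of all genes called is not given. This comparison shares the TG D80 libraries with the comparison of genotypes at D80.

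Rps14 was at 1048, 919 and 1325 CPM in TG D60 and at 388, 475 and 404 CPM in TG D80. It changed by -1.38 ± 0.27 (adjusted p = 0.0030). Rpl11 was at 717, 663 and 869 CPM and at 317, 365 and 349 CPM, a change of -1.13 ± 0.19 (adjusted p = 0.0016). The D60 libraries of both genes lay above all D80 libraries, with replicate 3 the highest.

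Rpl9 (chr5:65388364-65391444, minus strand), a large subunit protein, was at 760, 803 and 1073 CPM in TG D60 and at 420, 503 and 499 CPM in TG D80. It changed by -0.89 ± 0.19 (adjusted p = 0.0048). Rpl41 (chr10:128548114-128549305, minus strand), the shortest protein of the ribosome, was at 837, 790 and 1039 CPM and at 449, 506 and 491 CPM, a change of -0.88 ± 0.20 (adjusted p = 0.0060). Rpl39, another very short protein, changed by -0.82 ± 0.16 (adjusted p = 0.0031). Rpl5 fell by 0.53 ± 0.14 and Rplp0 by 0.54 ± 0.18 (adjusted p = 0.013 and 0.031). The call of Rpl5 was lost without TG D60 replicate 3 (0.051), and that of Rplp0 when any of 6 of the 12 libraries was left out (up to 0.096).

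Rpl4, a long protein that lines the peptide tunnel, was at 1175, 1024 and 1051 CPM in TG D60 and at 879, 908 and 936 CPM in TG D80. Its change of -0.26 ± 0.15 was not called (adjusted p = 0.22), although the groups did not overlap. Rpl6 (-0.20 ± 0.15, adjusted p = 0.30), Rpl14 (-0.23 ± 0.15, 0.26), the X-linked Rps4x (-0.30 ± 0.15, 0.13) and Rps6 (-0.35 ± 0.15, 0.080) were not called either, although Rps6 was without WT D80 replicate 1 (0.035). Over the 73 well-counted members, fold change and log2 transcript length had a Pearson correlation of 0.27 and a Spearman correlation of 0.39. Fold change and the share of common 50-base words had 0.07 and 0.08. For TG against WT at D80 the same correlations were 0.17 and 0.23 with length and 0.124 and 0.135 with shared words. These are across genes of the same libraries and describe them only.

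**Figure D2:**
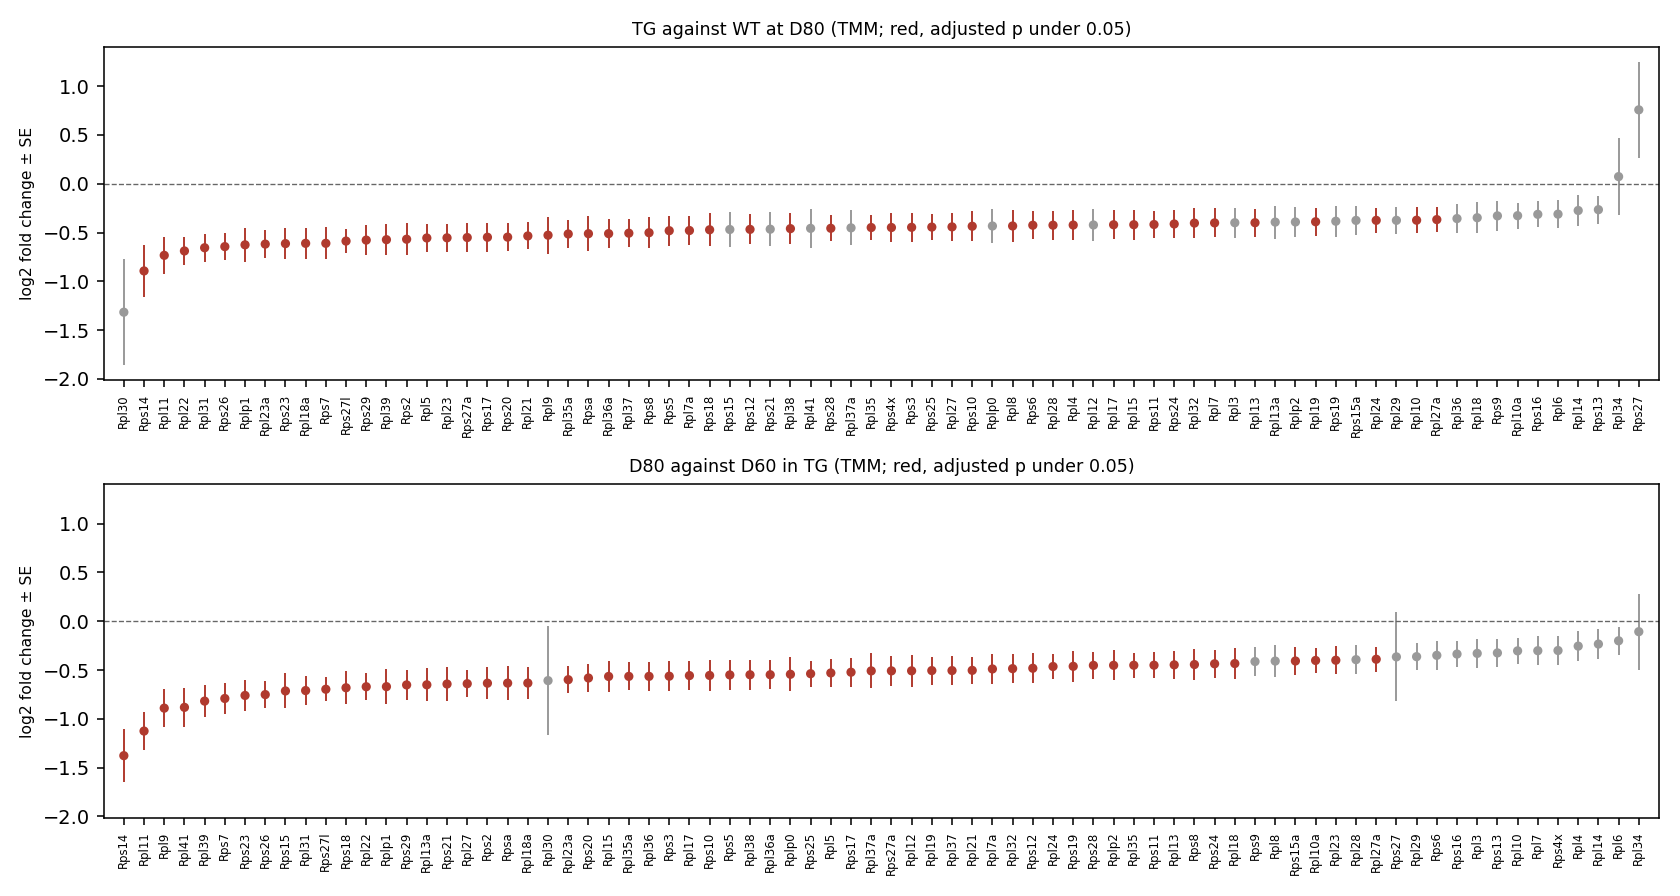
Log2 fold change ± SE of each of the 76 members on the TMM scale, ordered by size, for TG against WT at D80 (top) and D80 against D60 in TG mice (bottom). Red points have an adjusted p under 0.05, 53 in the top panel and 59 in the bottom panel, and Rpl30, Rpl34 and Rps27, with 2 to 46 counts, have the widest bars.

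**Figure D3:**
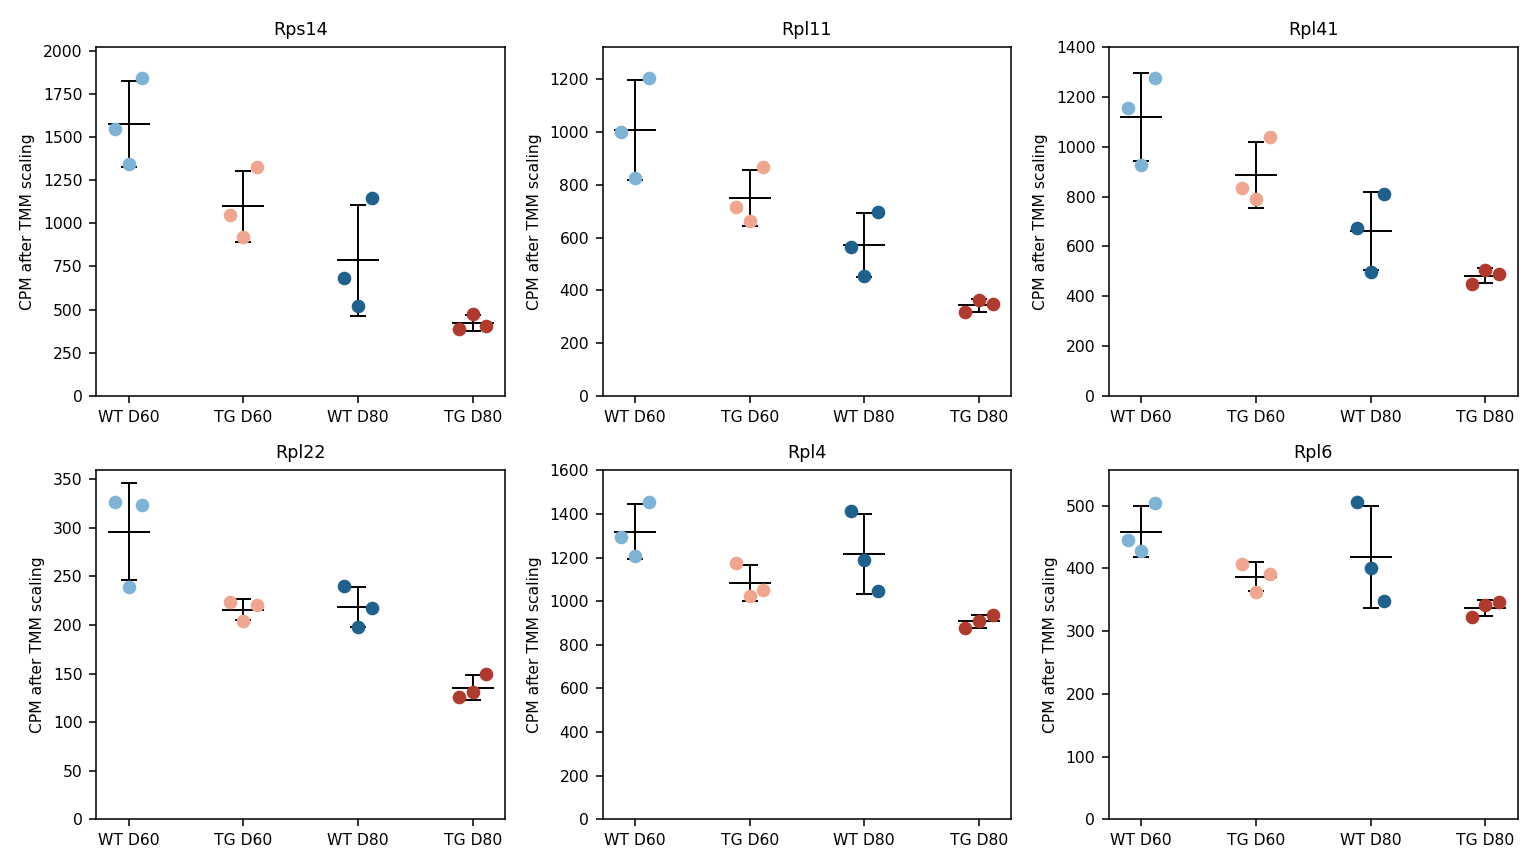
CPM after TMM scaling of Rps14, Rpl11, Rpl41, Rpl22, Rpl4 and Rpl6 in each library, with the mean ± SD of 3 libraries per group. TG D80 is the lowest group in each panel, and WT D80 replicate 3 of Rps14, at 1147 CPM, stands above the other 2 WT D80 libraries.

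At D60 between genotypes and between ages in WT mice, edgeR called no member, while DESeq2 called 3 and 12 lower. At D60, 0 were lower and 0 higher by edgeR, where 0.241% of all tested genes were called lower and 3.66% higher, and 27 members had an unadjusted p under 0.05, 26 of them lower and Rps27 higher, against 14.7% of all tested genes in either direction. DESeq2 called 3 lower, against 1.04% of all genes. The median was -0.29, against -0.00 over all genes, and in 29 members every TG library lay below every WT library, against 7.84% of all genes. Between ages in WT mice 0 were called by edgeR, as 0% of all tested genes were, with 50 members at an unadjusted p under 0.05, all lower, against 12.5% of all tested genes in either direction. DESeq2 called 12 lower, against 0.598% of all genes. The median was -0.36, against 0.04 over all genes, and 16 members did not overlap, against 4.55% of all genes.

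The genotype effect was not shown to differ between ages. The interaction had 0 members called by edgeR, 0 with an unadjusted p under 0.05 and 0 called by DESeq2, with a median of -0.14, against -0.06 over all tested genes. Of all genes, 23.2% had an unadjusted p under 0.05, 2.23% were called lower and 2.77% higher by edgeR and 5.11% lower by DESeq2. The sign of the members' interaction median depended on the scaling, since it was 0.15 with no composition factor. A change of factors shifts all genes by nearly the same amount, so this sign does not set the members apart.

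The count of falling members depended on how the libraries were scaled. With library totals alone and no composition factor, 0 of the 76 members were lower and 0 higher at D80 by edgeR, while 6.51% of all tested genes were called lower and 33.2% higher, 1 member, Rps27, had an unadjusted p under 0.05, against 49.3% of all genes, and DESeq2, on its own size factors, called 59 lower, against 21.8% of all genes. The median of the members was then -0.04 and that of all tested genes 0.34. For Rps14, 697, 485 and 980 unscaled CPM in WT D80 stood against 468, 585 and 525 in TG D80, and the groups overlapped. In only 1 member did every TG library lie below every WT library, against 8.12% of all genes.

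Between ages in TG mice the same scale left 5 members, or 6.58%, lower and 0 higher, against 7.14% and 33.5% of all tested genes, with a median of -0.14 against 0.39 for all genes. These 5, named after their values were seen, were Rps14 (-1.01 ± 0.23, adjusted p = 0.0065), Rpl11 (-0.75 ± 0.18, 0.0067), Rpl9 (-0.52 ± 0.19, 0.046), Rpl41 (-0.51 ± 0.18, 0.039) and the small subunit gene Rps7 (-0.42 ± 0.15, 0.040). Rps14 stood at 971, 944 and 1252 unscaled CPM in TG D60 and at 468, 585 and 525 in TG D80, with no overlap.

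A factor per library shifts the log2 fold changes of all genes by nearly the same amount, so the distance between the members' median and that of all genes is fixed by construction across these scalings and says nothing about stability. At D80 the members' median lay 0.37 below that of all tested genes with TMM factors, 0.37 below with DESeq2's size factors (RLE), 0.38 below with upper-quartile factors and 0.38 below with totals alone. The counts of lower members were 53, 34, 12 and 0 in the same order, against 22%, 19.1%, 13.6% and 6.51% of all genes. With TMM factors computed without the 76 genes, 53 members were lower, against 22.2% of all genes. Between ages in TG mice the distance was 0.53 in each of the 4 scalings and the counts were 59, 54, 37 and 5, against 18%, 16.5%, 14% and 7.14% of all genes.

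**Figure D4:**
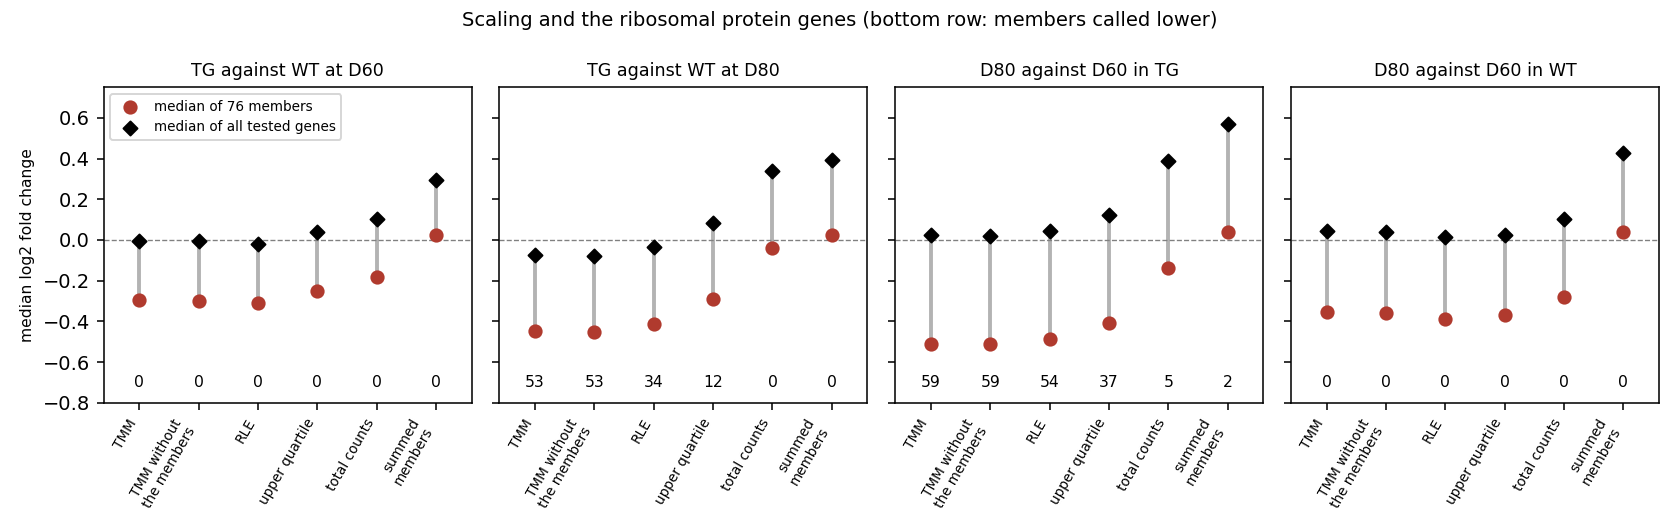
Median log2 fold change of the 76 members (red circles) and of all 15369 tested genes (black diamonds) in 4 comparisons under 6 scalings, with the number of members called lower at the bottom of each panel. Both medians shift together from TMM to total counts, the count of lower members goes from 53 to 0 at D80 and from 59 to 5 between ages in TG mice, and the distance between the medians is held by construction.

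The level of short relative to long transcripts was lower in every TG D80 library than in every TG D60 library. Between genotypes at D80 it overlapped. On the TMM scale, the median level of 1121 short non-member genes, under 1000 bases, relative to 4322 long ones, over 4000 bases, differed among libraries on the log2 scale. It was 0.00, -0.17 and -0.05 in WT D80 and -0.24, -0.09 and -0.09 in TG D80, and it was 0.17, 0.01 and 0.25 in WT D60 and 0.00, 0.01 and 0.14 in TG D60. With a trend on length taken out per library, an alternative added after seeing the data, 37 members were lower at D80 with a median of -0.34 and 27 between ages in TG mice with a median of -0.26, against 21.7% and 16.9% of all genes. The distance to the median of all genes, which a trend can change, was then 0.28 and 0.31, against 0.37 and 0.53 with TMM factors alone. The part of fragment length or RNA quality in these values was not tested.

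Within the family, the members kept nearly fixed proportions. Each member was expressed as a share of the summed members of its library, which removes any scaling of the whole library. Over the 12 libraries 65 of the 73 well-counted members varied by less than 0.5 on the log2 scale from lowest to highest, the median range was 0.28, and only Rps14 ranged over more than 1. On this scale 0 members were called lower by edgeR in TG against WT at D60 or D80 or between ages in WT mice, where 0.039%, 4.01% and 0% of all tested genes were.

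Between ages in TG mice 2 members, or 2.63%, were called lower relative to the sum, near the 3.25% of all tested genes, and they are given as 2 single genes. Rps14 made up 3.0%, 2.84% and 3.58% of the members' counts in TG D60 and 1.74%, 1.94% and 1.66% in TG D80, and changed by -0.82 ± 0.25 (adjusted p = 0.018). Rpl11 made up 2.05%, 2.05% and 2.35% and then 1.42%, 1.49% and 1.43%, and changed by -0.57 ± 0.17 (adjusted p = 0.016). Neither gene's groups overlapped. Without TG D60 replicate 3 both calls were lost (Rps14 -0.71, adjusted p = 0.070, and Rpl11 -0.50, 0.066), and the Rps14 call was also lost without TG D80 replicate 1 (-0.80, 0.052) or 3 (-0.77, 0.057).

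Rpl6 and Rpl14 moved up as shares of the members' sum over the same step without passing. Such shares are tied to each other, so a fall of some members raises the share of others. On the TMM scale the fold changes of both genes were negative and not called, as given above. Rpl6 made up 1.17%, 1.12% and 1.06% of the members' counts in TG D60 and 1.445%, 1.398% and 1.421% in TG D80 (0.35 ± 0.14, adjusted p = 0.053). Rpl14 had 1.15%, 1.16% and 1.09% and then 1.454%, 1.403% and 1.378% (0.32 ± 0.14, adjusted p = 0.070). The groups did not overlap in either gene, and both passed without WT D80 replicate 1 (0.035 and 0.045), as did Rpl6 without WT D80 replicate 3 (0.042).

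The libraries fell along a single axis of this balance. Of the variance in the log2 shares of 73 members, 73.7% lay on the first principal component. The 3 WT D60 libraries (0.22 to 0.35), the 3 TG D60 libraries (0.10 to 0.33) and WT D80 replicate 3 (0.22) lay on one side, and WT D80 replicates 1 and 2 (-0.29 and -0.32) and the 3 TG D80 libraries (-0.38 to -0.29) on the other. The weights were highest for Rps14, Rpl11, Rpl41, Rpl9 and Rpl39 and lowest for Rpl6, Rpl14, Rpl4, Rps4x and Rpl7. In WT D80, Rps14 made up 1.81% and 1.77% of the members' counts in replicates 1 and 2 and 3.64% in replicate 3, as in the D60 libraries, so WT D80 itself was split on this axis.

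**Figure D5:**
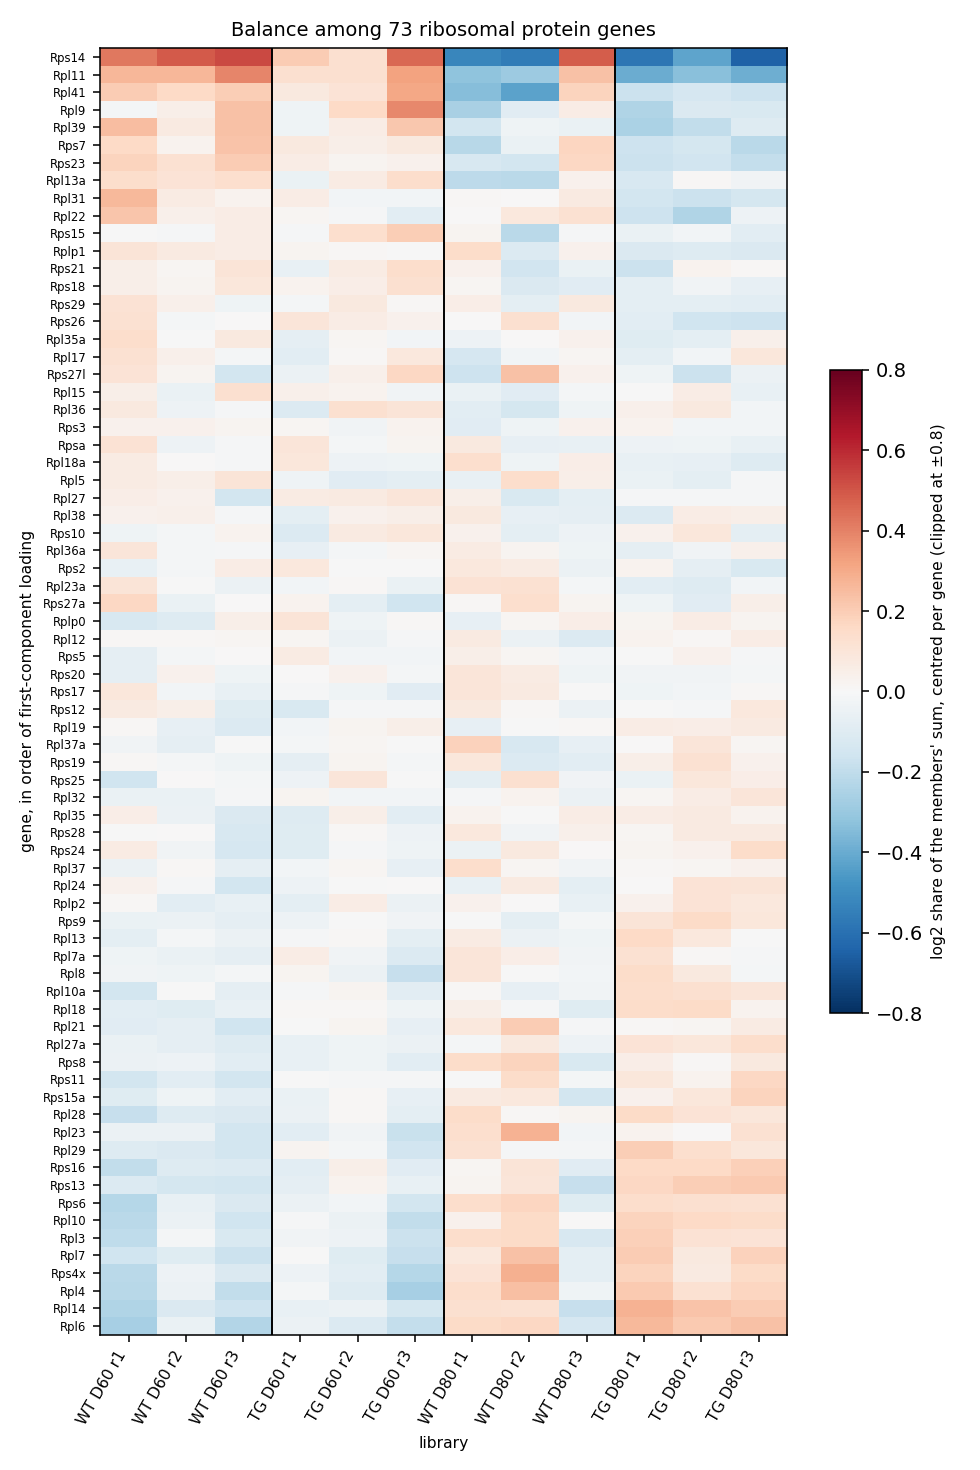
Log2 share of the members' summed counts in each library (columns), centred per gene, for 73 members (rows) in order of their weight on the first component. Rps14, Rpl11 and Rpl41 at the top are red in all D60 libraries and in WT D80 replicate 3 and blue in the other D80 libraries, and Rpl6, Rpl14 and Rpl4 at the bottom show the opposite, with 73.7% of the variance on this axis.

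Ribosomal proteins outside the symbol rule moved with the members. Of 7 tested, 6 (85.7%) were lower at D80 and 5 (71.4%) between ages in TG mice on the TMM scale, against 22% and 18% of all genes, and 0 in either with totals alone by edgeR (0 of 7 at an unadjusted p under 0.05 in both, against 49.3% and 51.6% of all genes). At D80 Fau, which encodes Rps30 in fusion with a ubiquitin-like protein (-0.42 ± 0.15, adjusted p = 0.039), Gnb2l1, the scaffold protein also named Rack1 (-0.58 ± 0.17, 0.020), and Rps3a1 (-0.41 ± 0.13, 0.030) fell. Their calls were lost when any of 8, 4 and 7 of the 12 libraries was left out, with adjusted p up to 0.18, 0.086 and 0.10.

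Members that have paralogs gave values near the rest of the family at D80. Rpl10, a late-joining protein of the large subunit (-0.37 ± 0.13, adjusted p = 0.041), Rpl7 (-0.40 ± 0.15, 0.047), Rpl36a (-0.51 ± 0.15, 0.017) and Rpl39 (-0.57 ± 0.16, 0.015) fell, and Rpl3, a protein of the peptidyl transferase centre (-0.40 ± 0.15, 0.054), and Rpl13a, which in human cells also silences inflammatory mRNAs (-0.39 ± 0.17, 0.084), did not pass. With library totals alone the fold changes of Rpl10, Rpl7, Rpl3 and Rpl13a were slightly above 0, and none of them was called. The calls of Rpl10 and Rpl7 were lost when any of 8 and of 10 of the 12 libraries was left out (adjusted p up to 0.13 in both, range -0.43 to -0.28 and -0.50 to -0.29), and Rpl3 was called without WT D80 replicate 3 (-0.51, 0.023). The calls of Rpl36a and Rpl39 were lost without TG D80 replicate 1 (0.063 and 0.055). Rpl22l1, a paralog of Rpl22, was at 79.5, 73.8 and 76.1 CPM in WT D80 and at 40.8, 44.1 and 53.8 CPM in TG D80 (-0.73 ± 0.18, adjusted p = 0.0086), and Rpl36al, a paralog of Rpl36a, changed by -0.52 ± 0.14 (0.012), a call lost without TG D80 replicate 3 (0.063). Rpl7l1, which in human cells takes part in making the large subunit, did not pass (-0.23 ± 0.12, adjusted p = 0.14). The tissue-restricted paralogs Rpl3l and Rpl10l, known from striated muscle and testis, were at or near 0 counts, as given above.

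Other genes tied to translation were set against the same background at D80, 22% of all tested genes lower and 19.4% higher on the TMM scale and 6.51% and 33.2% with totals alone. Of 21 translation factors with 5-prime TOP mRNAs, 7 (33.3%) were lower and 0 higher, with a median of -0.32, among them the growth-related Tpt1 (-0.55 ± 0.14, adjusted p = 0.0099), the initiation factor subunit Eif3h (-0.48 ± 0.15, 0.024) and the nascent chain binders Naca (-0.46 ± 0.13, 0.013) and Btf3 (-0.40 ± 0.11, 0.014). The call of Eif3h was lost without WT D60 replicate 1, WT D80 replicate 3, TG D80 replicate 1 or TG D80 replicate 3 (adjusted p up to 0.11), that of Naca without TG D80 replicate 1 (0.052) and that of Btf3 without TG D80 replicate 3 (0.051). With totals alone 0 were lower and 2 (9.52%) higher. Of 7 host RNAs of small nucleolar RNAs with such starts, 0 were called by edgeR on the TMM scale, 2 had an unadjusted p under 0.05, as did 50.1% of all genes, and 2 (28.6%) were higher with totals alone.

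The genes that assemble ribosomes had a median near that of all genes. Of 49 tested, 1 (2.04%) was higher and 5 (10.2%) lower at D80, smaller shares than the 19.4% and 22% of all genes, with a median of -0.03. The RNA polymerase I and III subunit Polr1c (-0.44 ± 0.13, adjusted p = 0.015), Sbds (-0.66 ± 0.19, 0.015) and Eif6 (-0.69 ± 0.20, 0.017), which act in the last steps of large subunit maturation, fell, and the nucleolar protein Nop56 rose (0.60 ± 0.18, 0.020). Without WT D80 replicate 3 the values were -0.43 for Sbds (adjusted p = 0.059), -0.41 for Eif6 (0.064) and 0.38 for Nop56 (0.022), the calls of Sbds and Eif6 were also lost without TG D80 replicate 3 (0.052 and 0.090), and that of Polr1c was lost without TG D80 replicate 2 (0.056). With totals alone 14 (28.6%) were higher and 0 lower, against 33.2% and 6.51% of all genes. Of 76 mitochondrial ribosomal protein genes, a list added after seeing the data, 30 (39.5%) were lower and 0 higher at D80, with a median of -0.31, and 1 (1.32%) was lower and 4 (5.26%) higher with totals alone.

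Regulators are given beside the same background of 22% of all genes lower and 19.4% higher, or 6.51% and 33.2% with totals alone. Of 11 genes of the Myc family and its partners, 1 (9.09%) was higher and 2 (18.2%) lower at D80 on the TMM scale, and 3 (27.3%) and 0 with totals alone. Antagonists of Myc were called in both directions. Mxd3 rose (2.23 ± 0.29, adjusted p = 0.00014), and Mxi1 (-0.86 ± 0.22, 0.0083) and Mxd1 (-1.70 ± 0.59, 0.037) fell. Without WT D80 replicate 3, Mxi1 was at -0.54 (adjusted p = 0.022) and Mxd1 at -1.01 (0.17). The call of Mxi1 was lost without TG D80 replicate 3 (0.051), and that of Mxd1 when any of 8 of the 12 libraries was left out, among them each WT D60 and each TG D80 library and WT D80 replicate 2. Of 22 genes of the mTOR pathway, 2 (9.09%) were higher, the mTOR inhibitors Sesn2 (0.68 ± 0.14, adjusted p = 0.0029) and Ddit4 (0.71 ± 0.15, 0.0036), and 5 (22.7%) lower, near the share of all genes, among them the translation repressor Eif4ebp2 (-0.66 ± 0.14, 0.0039), and with totals alone 6 (27.3%) were higher and 0 lower. Of 9 genes of the p53 arm, 1 (11.1%) was higher, Cdkn2a, and 3 (33.3%) were lower, Zmat3, Ccng1 and Cdkn1a, and with totals alone 3 (33.3%) were higher and 0 lower.

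The make-up of the tissue differed between the groups in which ribosomal protein genes fell. The 11 neuroendocrine markers, all detected in all libraries, summed to 700 to 749 CPM in WT D80, 4605 to 6332 in TG D60 and 26410 to 39500 in TG D80. The 8 smooth muscle markers, all detected, summed to 9535 to 15760 CPM in WT D80, 5889 to 12120 in TG D60 and 2364 to 2452 in TG D80. The 8 proliferation markers summed to 278 to 491 CPM in WT D80 and 711 to 791 in TG D80. The 12 pyloric epithelium markers, all detected, summed to 150700 to 172600 CPM in WT D80 and 48150 to 66250 in TG D80. The part of each of these in the ribosomal protein result was not tested.

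Neighbouring tissue and sex also differed among libraries. The 14 pancreatic acinar markers summed to 5186 CPM in TG D80 replicate 1 and to 288 to 1217 in the other D80 libraries, with Cpa1 and Cela3b at 0 in WT D80 replicate 2, and the 11 duodenal enterocyte markers to 12470 CPM in WT D80 replicate 3 and to 668 to 3797 in the others. The 9 lymphocyte markers summed to 5.53 to 30.2 CPM in WT D80 and 31.4 to 92.2 in TG D80, with Cd3d and Ms4a1 at 0 in WT D80 replicate 1. Y-linked genes had 1666 to 2080 counts in WT D60 libraries. In TG D60 and WT D80 libraries they had 0 counts, and Xist had 2218 to 8050. At D60 and between ages in WT mice sex and group therefore cannot be told apart. The interaction and the share over both ages use the same D60 libraries, so sex is not separated from group in them either. TG D80 replicate 1 had 2401 Y-linked counts and no Xist, and TG D80 replicates 2 and 3 had 13 and 0 Y-linked counts and 7038 and 11633 of Xist. Without TG D80 replicate 1 and WT D80 replicate 3 together, 16 members were lower at D80 and 27 between ages in TG mice. The share of all genes called in that fit is not given, so these counts do not set the members apart from other genes.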

How the data were processed

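Bulk RNA of pylorus was sequenced in 12 libraries, 3 in each of 4 groups, with a stranded poly(A) kit per the labels' protocols. The submitters' processing notes list the mm10 build with HTSeq 0.9.1, STAR 2.5.3a and edgeR 3.16.5, with no role given for each. They state neither the annotation nor the strand setting of the counting. As deposited by the authors, the files are a table of raw counts per gene and a normalized signal table of 15465 genes, in which 100% of values gave whole counts at a tolerance of 0.01 and the implied composition factors ran from 0.805 to 1.301.

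The raw counts were analysed with edgeR 4.0.16 in R 4.3.3 (filterByExpr, 15369 genes, TMM factors, a quasi-likelihood fit of all 4 groups, Benjamini-Hochberg adjustment over all tested genes, threshold 0.05), after checks on simulated data. Library totals were 20121600 to 27633715 counts. The balance within the family used the summed members as library size. Alternatives were other scalings, filters, DESeq2 1.42.0, limma 3.58.1 with voom or on log2 of the deposited normalized signal + 1, a replicate block, left-out libraries and, added after seeing the data, a length trend. Named genes were the called members with the largest changes (up to 4 in each direction), those with the highest and lowest levels or nearest the median, fixed paralogs, stalk and disease genes, and up to 4 genes per list with the smallest p. Others are named by their place in a result. Members and lists were chosen with earlier results of these data known. Coordinates are from GENCODE M21 on GRCm38 and promoters from RefSeq. Python 3.11.15 was used for tables and figures. Results for some single genes are not reported here.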

Additional observations from a re-analysis of the deposited data

How the results depend on the processing

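Both main results, 53 members lower in TG against WT at D80 and 59 between ages in TG mice, depended on the scaling. At D80, 34 were lower with DESeq2's size factors and 12 with upper-quartile factors, and 0 both on library totals without a factor and with the summed ribosomal protein counts as library size. The last 2 settings gave medians of -0.0382 and 0.0240. Between ages in TG mice, 37 were lower with upper-quartile factors, 5 on library totals alone (median -0.1378), 2 with the summed counts (0.0415) and 27 with the length trend (-0.2642). The summed counts gave medians of 0.0252 at D60 and 0.0403 between ages in WT mice, the length trend gave -0.1041 between ages in WT mice, and no composition factor gave 0.1536 for the interaction. These settings differ in what is held constant across libraries. Only the groups compared gave 18 lower members at D80, on fewer samples. Leaving out TG D80 replicate 1 and WT D80 replicate 3 together gave 16 and 27. The share of all genes called on fewer samples is not given beside these counts. DESeq2 itself, on its own size factors, called 59 members lower at D80, where edgeR with factors of that kind called 34. It called 3 members lower at D60 and 12 between ages in WT mice. limma-voom called 1 member higher within the family between ages in TG mice. The share over both ages differed by -0.326 percentage points (exact permutation within age, p = 0.27). It differed by -0.781 percentage points without the 100 most abundant other genes, where the same permutation test gave a p under 0.05. Of the other alternatives for this share, 14 did not cross that threshold. The cause was not tested.

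Leaving out each library in turn gave 18 to 58 lower members at D80 (median -0.53 to -0.33) and 22 to 66 between ages in TG mice (-0.53 to -0.455). It gave 0 to 4 lower and 0 to 1 higher at D60 (-0.41 to -0.21), 0 to 1 lower between ages in WT mice (-0.48 to -0.28), and interaction medians of -0.24 to -0.03. Within the family it gave 0 to 2 lower and 0 to 2 higher between ages in TG mice and 0 to 1 higher between genotypes at D60 and at D80. The share differed by -0.668 to -0.212 percentage points at D60, -0.336 to 0.238 at D80, -0.503 to -0.262 between ages in TG mice, -1.15 to -0.472 in WT mice and -0.426 to -0.139 over both ages. Shares of all genes called are not given for the counts of lower and higher members with a library left out.

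Single genes changed sign under 2 scalings. With no composition factor, log2 fold changes at D80 were Rplp2 0.0148, Rps19 0.0187, Rpl6 0.0898, Rpl14 0.1253, Rps13 0.1385, Fau 0.0041, Rpl7l1 0.1781, Btf3 0.0144, Rpl3 0.0014, Rpl10 0.0347, Rpl7 0.0044 and Rpl13a 0.0242, and between ages in TG mice Rpl4 0.1150, Rpl6 0.1699, Rpl14 0.1347, Rps4x 0.0699 and Rps6 0.0192. With the summed counts they were Rplp0 0.0365, Rplp2 0.0835, Rps6 0.0516, Rps19 0.0985, Rpl4 0.0509, Rpl6 0.1668, Rpl14 0.2058, Rps13 0.2075, Fau 0.0482, Rps3a1 0.0616, Rpl7l1 0.2323, Naca 0.0111, Btf3 0.0581, Polr1c 0.0245, Rpl3 0.0796, Rpl10 0.0972, Rpl7 0.0714, Rpl13a 0.0752 and Rpl35 0.0262 at D80, and Rpl5 0.0221, Rplp0 0.0089, Rpl4 0.2950, Rpl6 0.3506, Rpl14 0.3173, Rps4x 0.2503, Rps6 0.2001 and Rps27a 0.0415 between ages in TG mice.

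Replicate numbers did not pair the libraries: deviations of 18 same-numbered pairs had correlations of -0.344 to 0.393, with 6 over 0.1, and 3 libraries correlated best with their own number. With the replicate number as a block, 42 members were lower at D80 (median -0.44), 52 between ages in TG mice (-0.50) and 0 in the other comparisons, and 2 within the family. The share of all genes called with this block is not given. The 2-group fit could not be made for the interaction. The table held no mitochondrially encoded genes, so the denominator meant to leave them out removed ribosomal RNA only. With 3 libraries a group, and 2 to 46 counts for Rpl30, Rpl34 and Rps27, small changes were not detectable for these 3 genes.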
